A study of Mus musculus with 25 samples.

Results

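Eubacterium made up 52 of the 1555 amplicon sequence variants (ASVs, distinct sequences left after read errors are removed) counted in the feces of these mice. The 52 were taken by the genus field of the deposited taxonomy and then divided by the species field, which held 3 names: xylanophilum with 21 ASVs, coprostanoligenes with 9 and oxidoreducens with 22. Together they held 7143 of 300831 counts, or 2.37%, and Eubacterium ranked 10 among 110 named genera by its mean share over the 25 libraries, 2.43%. The names are those of the deposited taxonomy, whose database and method of assignment were not given. Whether the bacteria sampled belong to the species themselves was not tested.

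The study profiled fecal bacteria by sequencing the full-length 16S rRNA gene on a PacBio instrument in 5 groups of 5 libraries from C57BL/6 mice. The groups were OVX+GEX, OVX+FMT, OVX+PBS, OVX and Sham. OVX is the usual abbreviation of ovariectomy, which removes the ovaries and with them most estrogen, and all groups except Sham carried it. Sham stands for an operation that leaves the ovaries in place. GEX is not spelled out in the labels, and the study's description speaks of a traditional decoction. FMT is the usual abbreviation of fecal microbiota transplantation and PBS of phosphate-buffered saline. The labels give a male sex for all samples, which is at odds with ovariectomy, and no age, dose, duration, cage or transplant donor is stated there. Library totals ran from 8498 to 10771 counts in OVX+GEX, 9484 to 22403 in OVX+FMT, 8558 to 21751 in OVX+PBS, 9189 to 11252 in OVX and 9735 to 22404 in Sham. Nothing states that the libraries of a group came from separate cages or litters, so the p-values below measure the spread between these libraries.

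Eubacterium is a genus name long used for anaerobic, Gram-positive rods of the gut and rumen, and many of its former species now stand in other genera. Eubacterium coprostanoligenes is known for reducing cholesterol to coprostanol, a sterol that the gut absorbs poorly. Eubacterium xylanophilum was described as a rumen bacterium that degrades xylan, a plant cell wall polysaccharide. Eubacterium oxidoreducens, also from the rumen, is known for breaking down gallate and related plant phenolics.

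The genus was least abundant, and least variable, in OVX+GEX. Eubacterium took 0.639%, 0.992%, 0.980%, 0.741% and 1.11% of counts in OVX+GEX libraries 1 to 5, 1.19%, 2.01%, 2.30%, 7.36% and 0.638% in OVX+FMT, and 3.20%, 3.55%, 2.85%, 0.643% and 1.97% in OVX+PBS. It took 2.45%, 6.46%, 2.34%, 0.938% and 2.26% in OVX and 2.27%, 5.05%, 2.83%, 2.16% and 3.84% in Sham. The highest and the lowest OVX+FMT library differed 11.5-fold, against 1.74-fold in OVX+GEX and 2.33-fold in Sham. The Wilson 95% intervals of these shares, which cover counting error only, were 0.112 to 0.526 points wide on each side. The Pearson dispersion of the Eubacterium counts, where 1 stands for counting error alone, was 4.38 in OVX+GEX. It was 51.3 in OVX+PBS, 58.0 in Sham, 159 in OVX and 381 in OVX+FMT. Most of the spread within each group thus lay beyond counting error.

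**Figure D1:**
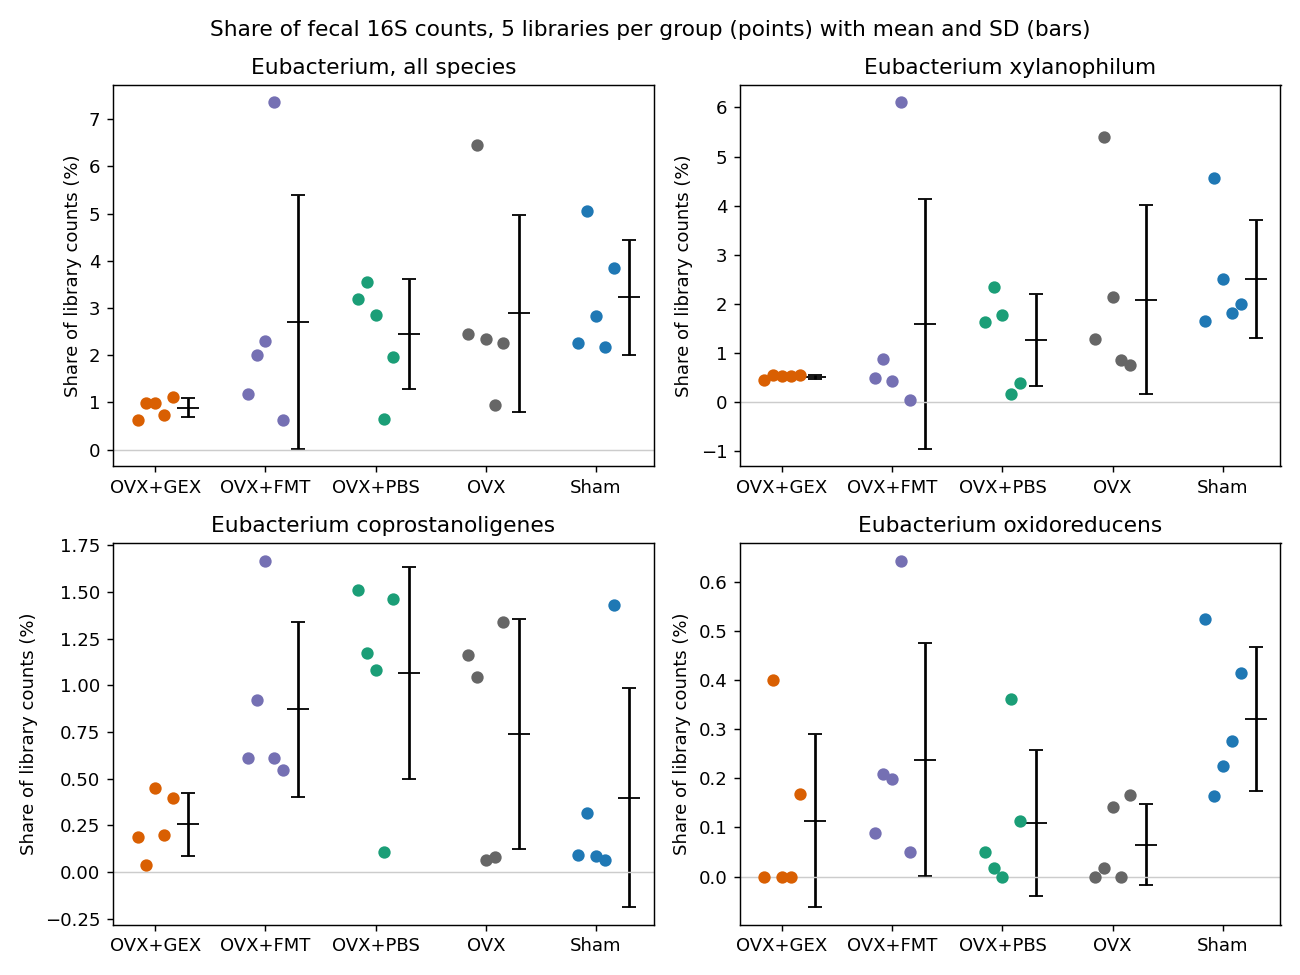
Share of library counts in percent (vertical axis) by group for Eubacterium and its 3 species names; points are the 5 libraries of a group and bars the mean with SD, which can reach below 0 although shares cannot. The OVX+GEX points for all Eubacterium lie between 0.639% and 1.11% and those for xylanophilum between 0.451% and 0.551%, while the OVX+FMT group holds 1 library at 7.36% and 6.11%.

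The mean share was 0.893% ± 0.196 in OVX+GEX, against 3.23% ± 1.22 in Sham (SD, n = 5 each), and all 5 OVX+GEX libraries lay below all 5 Sham libraries. The difference of -2.34 points had an exact two-sided permutation p of 0.00794, the smallest that 5 against 5 allows, and 0.0556 after Benjamini-Hochberg adjustment over the 7 comparisons, which did not pass the 0.05 threshold. Of 81 genera tested, 3 (3.7%) lay below Sham in all OVX+GEX libraries in this way, Eubacterium among them. Against OVX, at 2.89% ± 2.09, the OVX+GEX mean differed by -1.996 points (exact permutation p = 0.0317, adjusted p = 0.111). Here the groups overlapped, since OVX library 4 lay within the OVX+GEX range. Without that library the difference was -2.48 points with an adjusted exact p of 0.0278, and without OVX library 2 it was -1.10 points. Leaving out OVX library 4 removed the only overlap of these groups, so passing without it is no further support.

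No difference in the genus share among the other 4 groups passed the test either. The mean was 2.70% ± 2.69 in OVX+FMT and 2.44% ± 1.16 in OVX+PBS (SD, n = 5 each), a difference of 0.258 points with an exact permutation p of 0.913. For OVX+PBS against OVX the difference was -0.447 points (exact permutation p = 0.762), and for OVX against Sham it was -0.341 points (exact permutation p = 0.770). Against Sham, OVX+PBS differed by -0.788 points and OVX+FMT by -0.531 points, with exact permutation p-values of 0.349 and 0.714. The OVX+FMT mean and its SD rested on library 4, and without that library OVX+FMT lay -0.907 points from OVX+PBS.

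edgeR's quasi-likelihood test on genus counts, which models all 25 libraries together and scales them by TMM, also put OVX+GEX below OVX and below Sham, without a call. The log2 fold change of OVX+GEX over OVX was -1.45 (SE 0.57, unadjusted p = 0.0168, edgeR adjusted p = 0.272), and that of OVX+GEX over Sham -1.16 (SE 0.57, unadjusted p = 0.049998, edgeR adjusted p = 0.450). The remaining 5 comparisons had log2 fold changes between -0.10 and 0.29 with edgeR adjusted p-values of 0.858 to 0.997, and their order differed from that of the shares: OVX had the higher estimate against Sham and OVX+FMT the lower one against OVX+PBS. Eubacterium was thus past the threshold in 0 of 7 comparisons by edgeR, and the same held with DESeq2 and with limma on centred log-ratios. DESeq2 called 6.17%, 8.64% and 7.41% of all genera for OVX+GEX, OVX+PBS and OVX+FMT against Sham and 0% to 1.23% elsewhere, and limma 0% to 2.47%. At an unadjusted p under 0.05 edgeR placed it in 2, OVX+GEX against OVX, where 6.17% of all genera reached that level, and OVX+GEX against Sham, where 11.1% did. Over all 81 genera edgeR called 4.94% for OVX+GEX against Sham, 1.23% for OVX+PBS against Sham, 1.23% for OVX+FMT against Sham and 0% in the other 4 comparisons. When libraries were scaled by their plain totals, the median log2 fold change of all genera moved by -0.60 to 0.05, and in the comparisons without OVX+GEX the sign of the Eubacterium estimate changed with the scaling.

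Eubacterium xylanophilum was the main name within the genus, with 4667 counts or 65.3% of the Eubacterium total, and it occurred in all 25 libraries. Its counts were 48, 55, 47, 46 and 59 in OVX+GEX libraries 1 to 5, 109, 93, 44, 579 and 8 in OVX+FMT, and 356, 265, 155, 15 and 35 in OVX+PBS. They were 145, 597, 196, 87 and 73 in OVX and 161, 446, 437, 409 and 202 in Sham. As shares of the library these were 0.451% to 0.551% in OVX+GEX, 0.0405% to 6.11% in OVX+FMT, 0.175% to 2.36% in OVX+PBS, 0.757% to 5.39% in OVX and 1.65% to 4.57% in Sham. All OVX+GEX libraries thus lay below all OVX and all Sham libraries, while the OVX+FMT and OVX+PBS ranges ran across the OVX+GEX range on both sides.

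These shares are given as a description with no test, because the groups had been seen not to overlap, and that alone fixes the exact permutation p. Xylanophilum averaged 0.524% ± 0.0416 in OVX+GEX, against 2.09% ± 1.93 in OVX and 2.51% ± 1.19 in Sham (SD, n = 5 each). The differences were -1.56 points against OVX and -1.99 points against Sham. Of 125 species names, 1.6% lay below all OVX libraries in all OVX+GEX libraries and 2.4% below all Sham libraries, xylanophilum among both. Without OVX library 2 the difference from OVX was -0.735 points. edgeR's quasi-likelihood test on species counts gave log2 fold changes of -1.61 (SE 0.76, edgeR adjusted p = 0.577) against OVX and -1.83 (SE 0.77, edgeR adjusted p = 0.282) against Sham, so that neither difference was called by edgeR.

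The even level of xylanophilum in OVX+GEX came from sets of ASVs that overlapped only in part between libraries. The 5 OVX+GEX counts spread no more than counting error alone would give, with a Pearson dispersion of 0.347 where 1 stands for counting error alone, against 61.6 to 592 in the other 4 groups. A dispersion from 5 libraries is itself uncertain, and whether 0.347 lies below counting error was not tested. Library 1 held ASV_92 with 27 counts and ASV_307 with 21. Library 2 held ASV_53, ASV_829, ASV_92 and ASV_63 with 19, 15, 12 and 9 counts, and library 3 ASV_63, ASV_223 and ASV_92 with 28, 14 and 5. In library 4 the counts were 24 for ASV_307, 10 for ASV_92, 7 for ASV_385 and 5 for ASV_459, and in library 5 they were 26 for ASV_165, 22 for ASV_533 and 11 for ASV_743. ASV_92 was shared by libraries 1 to 4, ASV_307 by libraries 1 and 4 and ASV_63 by libraries 2 and 3, library 5 shared none of its xylanophilum ASVs with the others, and no xylanophilum ASV was in all 5. The ASVs of this paragraph other than ASV_53, ASV_63 and ASV_92 were chosen after their values had been seen.

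Eubacterium coprostanoligenes, the cholesterol-reducing name, held 1990 counts or 27.9% of the genus and was also present in every library. Its counts were 20, 4, 40, 17 and 43 in OVX+GEX, 137, 97, 168, 58 and 108 in OVX+FMT, and 329, 132, 95, 9 and 129 in OVX+PBS. They were 131, 116, 6, 8 and 129 in OVX and 9, 31, 15, 14 and 145 in Sham. Of the 5 Sham libraries 4 were low, at 0.0625% to 0.318% of the library, and library 5 alone reached 1.43%. The OVX libraries formed a high set of 3 at 1.05% to 1.34% and a low set of 2 at 0.0653% and 0.0790%. OVX+FMT was the group with no low library, at 0.547% to 1.67%.

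Mean coprostanoligenes shares were 0.256% ± 0.168 in OVX+GEX, 0.872% ± 0.469 in OVX+FMT, 1.07% ± 0.568 in OVX+PBS, 0.739% ± 0.617 in OVX and 0.398% ± 0.587 in Sham (SD, n = 5 each). edgeR's log2 fold change over Sham was 1.95 (SE 0.93, unadjusted p = 0.0431, edgeR adjusted p = 0.250) for OVX+PBS and 1.53 (SE 0.92, edgeR adjusted p = 0.437) for OVX+FMT. For OVX over Sham it was 1.17 (SE 0.91, edgeR adjusted p = 0.840). OVX+GEX had an estimate of -0.02 over Sham and of -1.19 over OVX, with edgeR adjusted p-values of 1.0 for both, and the sign of the first changed with the scaling. None of the 7 comparisons passed the threshold for this species.

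Eubacterium oxidoreducens, the phenolic-degrading name, was spread over the most ASVs and the fewest counts, 486 or 6.80% of the genus. It had 0, 40, 0, 0 and 18 counts in OVX+GEX, 20, 22, 20, 61 and 10 in OVX+FMT, 11, 2, 0, 31 and 10 in OVX+PBS, 0, 2, 13, 0 and 16 in OVX, and 51, 16, 39, 62 and 42 in Sham. It was found in 19 of 25 libraries, including every Sham and every OVX+FMT library. In the 6 libraries without a count, 3 of them OVX+GEX, a count of 0 allows a share of up to 0.0267% to 0.0353%. Its mean share was 0.114% ± 0.176 in OVX+GEX, 0.238% ± 0.237 in OVX+FMT, 0.109% ± 0.148 in OVX+PBS and 0.0651% ± 0.0817 in OVX, against 0.321% ± 0.147 in Sham (SD, n = 5 each). edgeR's log2 fold change of OVX over Sham, -2.07 with an SE of 1.42, was the furthest from 0 of the 7 and did not pass the threshold (edgeR adjusted p = 0.840).

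Over the 3 species names edgeR called 0 in each of the 7 comparisons, as did DESeq2 and limma on centred log-ratios. At an unadjusted p under 0.05 edgeR placed xylanophilum in the comparisons of OVX+GEX with OVX and with Sham, and coprostanoligenes in that of OVX+PBS with Sham. Of all species names 8.0%, 10.4% and 17.6% reached that level in these 3 comparisons. Among all 125 species names tested, edgeR called 0.8% for OVX+GEX against Sham and 0% in the other comparisons, DESeq2 0% to 7.2% and limma 0% to 3.2%.

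**Figure D2:**
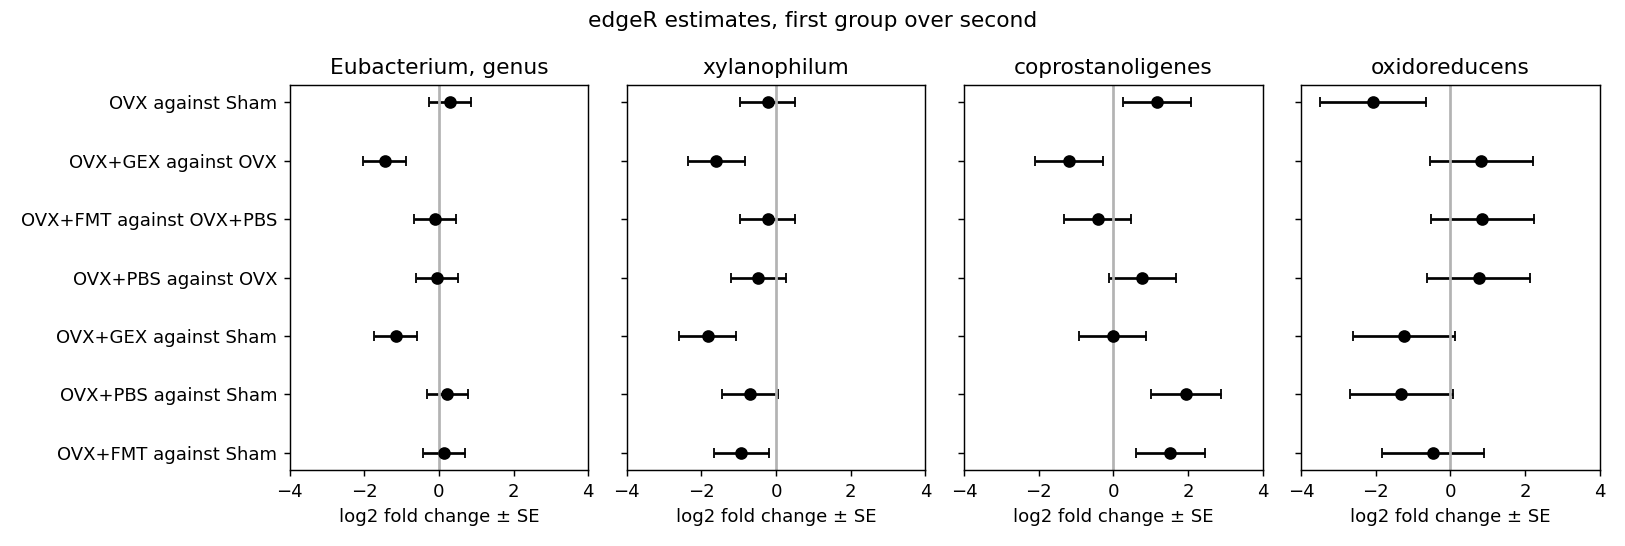
Log2 fold change from edgeR (horizontal axis, first-named group over the other) with bars of 1 SE for Eubacterium as a genus and for its 3 species names, in the 7 comparisons. The xylanophilum estimates for OVX+GEX are -1.61 over OVX and -1.83 over Sham. The coprostanoligenes estimates over Sham are 1.95 for OVX+PBS and 1.53 for OVX+FMT. These lie more than 1 SE from 0, as do several others, among them oxidoreducens for OVX over Sham. No estimate shown passed the threshold after adjustment.

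Taken within the genus, where the total of other bacteria plays no part, the mean part of coprostanoligenes was higher and that of xylanophilum lower in OVX+FMT and OVX+PBS than in Sham, by differences that passed 0.05 only before adjustment. Coprostanoligenes took 51.5%, 45.8%, 72.4%, 8.31% and 85.7% of Eubacterium counts in OVX+FMT libraries 1 to 5, and 47.3%, 33.1%, 38.0%, 16.4% and 74.1% in OVX+PBS. In Sham it took 4.07%, 6.29%, 3.05%, 2.89% and 37.3%. The mean part was 52.7% ± 29.6 in OVX+FMT, against 10.7% ± 14.9 in Sham (SD, n = 5 each), a difference of 42.0 points with an exact permutation p of 0.0159 and an adjusted p of 0.0833. In OVX+PBS it was 41.8% ± 21.3, a difference from Sham of 31.1 points (exact permutation p = 0.0238, adjusted p = 0.0833). The groups overlapped through Sham library 5 and through OVX+FMT library 4, in which 83.0% of Eubacterium was xylanophilum.

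The xylanophilum part mirrored this, since oxidoreducens was minor in most libraries. Its mean was 38.6% ± 29.3 in OVX+FMT and 45.4% ± 20.7 in OVX+PBS, against 77.7% ± 16.0 in Sham (SD, n = 5 each). The differences of -39.1 and -32.3 points both had an exact permutation p of 0.0317 and an adjusted p of 0.111. OVX+GEX, at 60.5% ± 10.6, differed from Sham by -17.2 points (exact permutation p = 0.103, adjusted p = 0.241), and OVX, at 70.5% ± 26.1, by -7.26 points (exact permutation p = 0.683). Hence the lower Eubacterium share of OVX+GEX was not accompanied by a change in species make-up that passed the test. OVX+GEX and OVX differed by 1.63 points in the coprostanoligenes part (exact permutation p = 0.913), a difference whose sign turned when any 1 of 5 among the 10 libraries was left out. Oxidoreducens led the genus in 1 library, OVX+PBS 4, with 56.4% of only 55 Eubacterium counts.

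**Figure D3:**
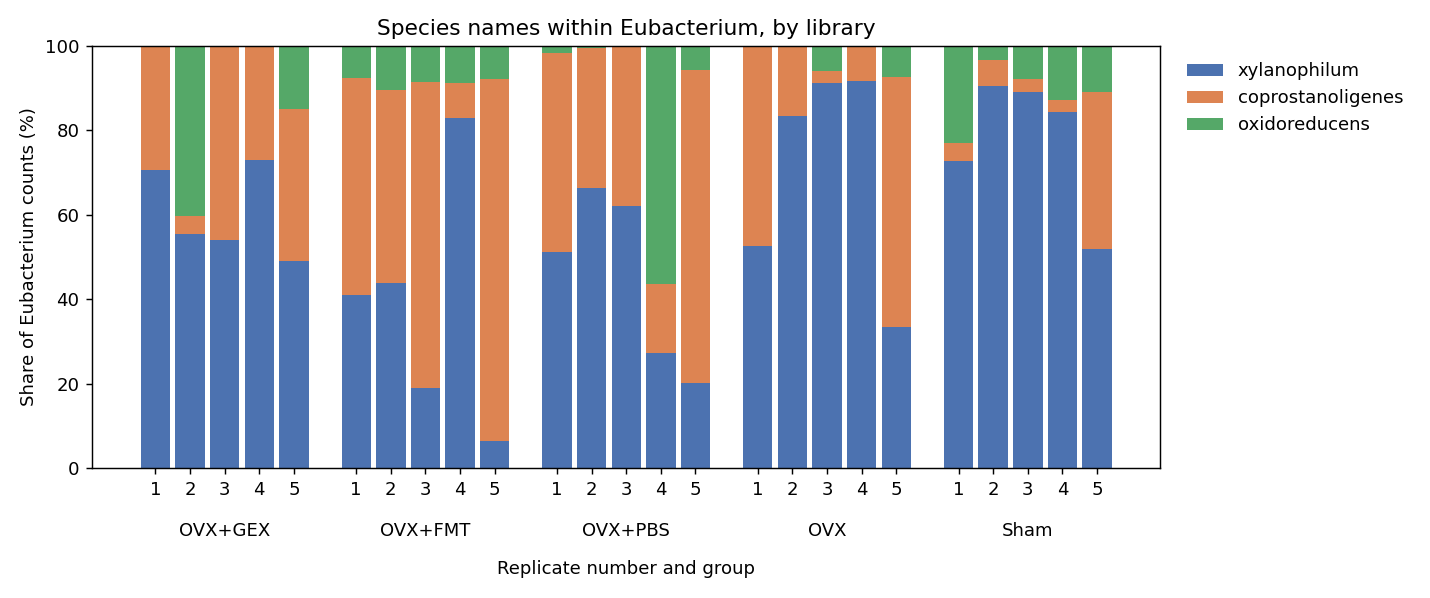
Share of each library's Eubacterium counts in percent (vertical axis) carried by the 3 species names, for replicates 1 to 5 of each group. Xylanophilum fills 51.9% to 90.5% of the Sham bars, while coprostanoligenes fills 33.1% or more in 4 of 5 OVX+FMT and 4 of 5 OVX+PBS bars.

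Fewer Eubacterium ASVs were seen in the ovariectomized groups than in Sham, but no difference passed adjustment. Libraries 1 to 5 held 4, 9, 5, 5 and 7 in OVX+GEX, 8, 8, 6, 14 and 5 in OVX+FMT, 11, 5, 8, 4 and 5 in OVX+PBS, 6, 10, 12, 5 and 11 in OVX, and 11, 9, 17, 19 and 13 in Sham. At an equal depth of 8498 reads the expected number was 5.99 ± 1.99 in OVX+GEX, 8.11 ± 3.59 in OVX+FMT, 6.48 ± 2.69 in OVX+PBS, 8.79 ± 3.11 in OVX and 13.5 ± 3.71 in Sham (SD, n = 5 each). All OVX+GEX libraries fell just below or far below the lowest Sham library, with 8.9995 as the highest OVX+GEX value and 8.9997 as the lowest Sham value. That difference was -7.50 ASVs (exact permutation p = 0.00794, adjusted p = 0.0556). OVX+PBS differed from Sham by -7.00 ASVs (exact permutation p = 0.0159, adjusted p = 0.0556), OVX+FMT by -5.38 and OVX by -4.70 (adjusted exact p = 0.125 for both). Without OVX+FMT library 4, the richest of its group, the OVX+FMT difference was -6.85 with an adjusted exact p of 0.0370. That library was the only one of OVX+FMT not below all Sham libraries, so passing without it is no further support.

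Few Eubacterium ASVs were widespread. Of the 52, 15 occurred in 1 library and held 5.21% of the genus counts, 6 occurred in 10 or more libraries, and the most widespread, ASV_45, occurred in 18. Sham had 3 ASVs present in all of its 5 libraries, OVX and OVX+FMT had 1 each, and OVX+GEX and OVX+PBS had 0. The number of ASVs seen in Sham and in no other group was 9, against 1 for OVX+GEX, 3 for OVX+FMT, 5 for OVX+PBS and 2 for OVX. These numbers were not set to equal depth, and library totals reached 22404 counts in Sham against 10771 in OVX+GEX. The same numbers over all ASVs were not worked out, so these are a description of Eubacterium alone. A total of 15 ASVs, 10 xylanophilum, 3 coprostanoligenes and 2 oxidoreducens, reached 3 counts in 5 or more libraries and could be tested, and these held 83.5% of the genus counts. The other 37 were too sparse for a test.

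The 8 ASVs with the highest mean share held 70.5% of all Eubacterium counts. Coprostanoligenes was mostly ASV_45, with 1044 counts, and ASV_80, with 524, and these had different distributions. ASV_45 had 0, 0, 35, 17 and 2 counts in OVX+GEX, 110, 88, 71, 32 and 0 in OVX+FMT, 329, 123, 93, 0 and 11 in OVX+PBS, 0, 5, 3, 8 and 0 in OVX, and 9, 23, 0, 2 and 83 in Sham. ASV_80 had 4, 4, 0, 0 and 0 in OVX+GEX, 27, 9, 97, 26 and 2 in OVX+FMT, 0 in all OVX+PBS libraries, 127, 111, 3, 0 and 96 in OVX, and 0, 0, 8, 5 and 5 in Sham. ASV_45 thus gave most of the coprostanoligenes counts in OVX+PBS libraries 1, 2 and 3 and ASV_80 most of those in OVX libraries 1, 2 and 5, while OVX+FMT held both in 4 of 5 libraries. The low libraries went another way, since all 8 counts of OVX 4 were ASV_45, the 6 counts of OVX 3 were split evenly and all 9 counts of OVX+PBS 4 were ASV_982. In OVX+FMT 5, OVX+PBS 5 and OVX 5 a further coprostanoligenes ASV, ASV_150, gave 101, 118 and 15 counts, and it was absent from the other 22 libraries. ASV_150 and ASV_982 were chosen after their values had been seen.

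**Figure D4:**
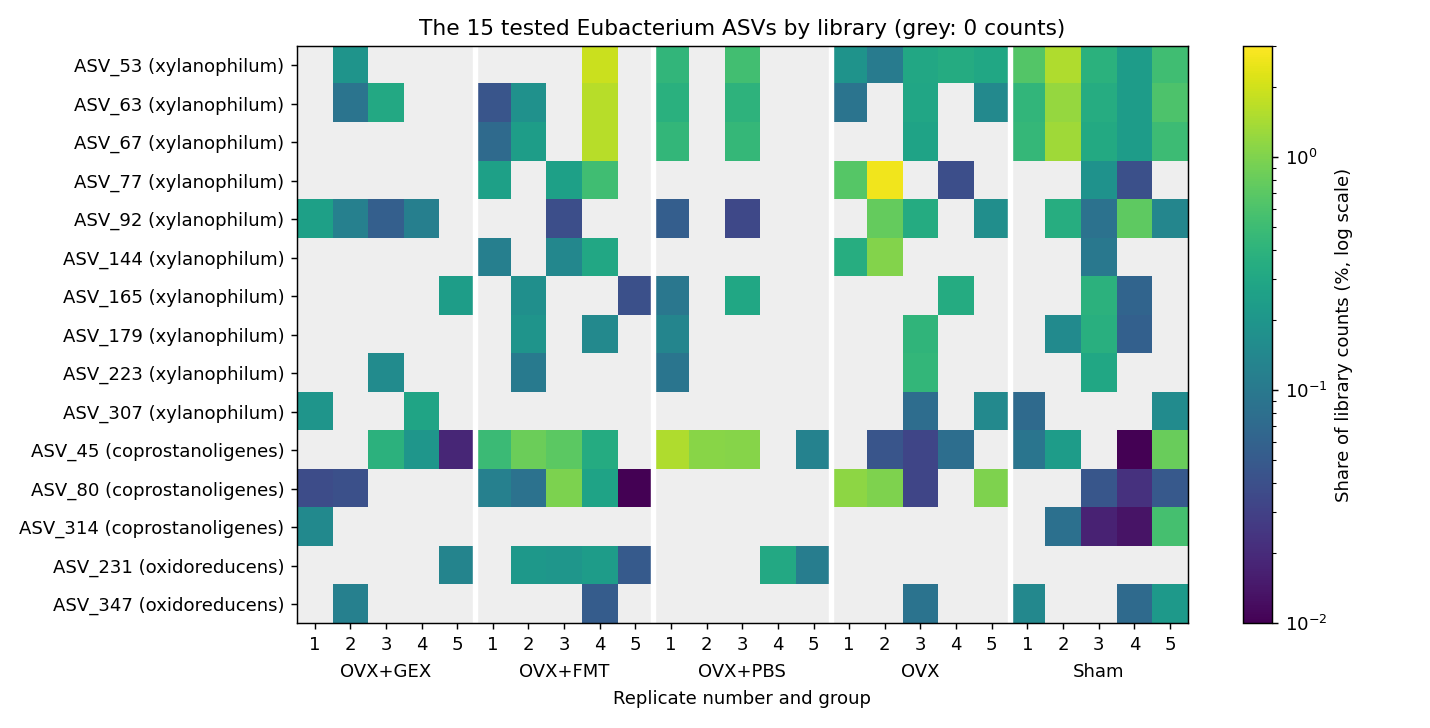
The 15 tested Eubacterium ASVs (vertical axis, with species name) in replicates 1 to 5 of each group (horizontal axis); colour is the share of library counts in percent on a log scale and grey is 0 counts. ASV_53, ASV_63 and ASV_67 are filled in all 5 Sham columns, and ASV_80 is grey in all 5 OVX+PBS columns.

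ASV_80 came closest to the threshold of all members. It averaged 0% in OVX+PBS, against 0.632% ± 0.565 in OVX (SD, n = 5 each), which is at least 22.0-fold lower when each library at 0 is set to 3 counts (edgeR adjusted p = 0.0659). OVX+FMT, at 0.291% ± 0.388, was at least 10.1-fold higher than OVX+PBS (edgeR adjusted p = 0.0661). DESeq2 called both differences, with adjusted p-values of 0.000339 and 0.00215. Over all alternatives the adjusted p ran from 0.000339 to 0.186 for OVX+PBS against OVX and from 0.00215 to 0.191 for OVX+FMT against OVX+PBS. ASV_45 was higher in OVX+PBS than in OVX by 4.64 on the log2 scale (SE 1.85), which did not pass (edgeR adjusted p = 0.127).

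Among the xylanophilum ASVs, ASV_53, ASV_63 and ASV_67 were the ones that every Sham library held. All 3 were present together in 5 of 5 Sham libraries, in 2 of 5 OVX+PBS, 1 of 5 OVX and 1 of 5 OVX+FMT libraries, and in 0 of 5 OVX+GEX libraries. Their summed share was 0%, 0.281%, 0.315%, 0% and 0% in OVX+GEX, 0.116%, 0.417%, 0%, 5.12% and 0% in OVX+FMT, and 1.24%, 0%, 1.38%, 0% and 0% in OVX+PBS. It was 0.276%, 0.108%, 0.871%, 0.336% and 0.446% in OVX and 1.53%, 4.07%, 1.04%, 0.701% and 1.63% in Sham. All OVX+GEX values, and all but 1 of the OVX values, lay below the lowest Sham value. The OVX+FMT 4 library, which carried the highest genus share, owed 486 of its 579 xylanophilum counts to these 3 ASVs. The set was put together after its values had been seen, and no test was run on the sum.

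Where the 3 occurred together their counts were close to equal. Over the 9 such libraries the ratio of ASV_63 to ASV_53 was 0.656 to 1.17 with a median of 0.891, and that of ASV_67 to ASV_53 was 0.672 to 1.04 with a median of 0.878. The counts of ASV_53 in these libraries ran from 28 to 179. Elsewhere the 3 came apart: OVX libraries 2 and 4 held ASV_53 alone, OVX+GEX 3 held ASV_63 alone, and OVX+FMT 1 and 2 held ASV_63 and ASV_67 without ASV_53. A second set was ASV_77, with 546 counts, and ASV_144, with 241. They occurred together in 3 OVX+FMT, 2 OVX and 1 Sham libraries at ratios of ASV_144 to ASV_77 between 0.396 and 0.580, and neither was seen in any OVX+GEX or OVX+PBS library. One genome can carry several differing copies of the 16S gene, and whether the ASVs of a set came from the same genome was not tested.

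**Figure D5:**
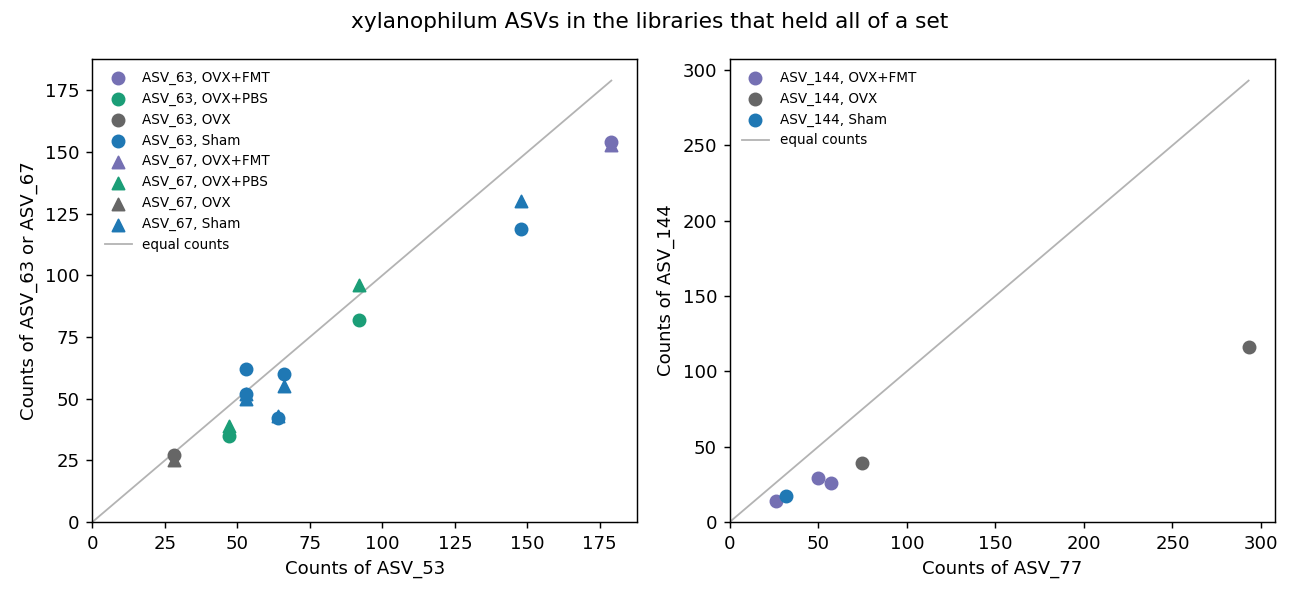
Counts of ASV_63 and ASV_67 against ASV_53 in the 9 libraries that held all 3 (left) and of ASV_144 against ASV_77 in the 6 libraries that held both (right), coloured by group, with the line of equal counts. The left points follow that line up to 179 counts of ASV_53, and the right points lie below it at ratios of 0.396 to 0.580.

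Of the 8 named ASVs, ASV_67, ASV_77 and ASV_144 had no count in any OVX+GEX library. The share of all ASVs without a count in OVX+GEX was not worked out. ASV_67 had 0 counts in all OVX+GEX libraries, against 43, 130, 55, 52 and 50 in Sham, which makes OVX+GEX at least 18.1-fold lower (edgeR adjusted p = 0.149, 0.0142 to 0.211 over the alternatives). DESeq2 called it with an adjusted p of 0.0295, and limma on centred log-ratios with one of 0.0269. ASV_77 was at least 21.6-fold lower in OVX+GEX than in OVX (edgeR adjusted p = 0.202, 0.0144 to 0.531 over the alternatives). Its OVX counts were 75, 293, 0, 4 and 0, so that this bound rested on 2 libraries. ASV_53 fell short of the threshold as well, with a log2 fold change of OVX+GEX over Sham of -3.81 (SE 1.97, edgeR adjusted p = 0.297).

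ASV_92, the fifth xylanophilum ASV by mean share, was by contrast found in most OVX+GEX libraries. Its counts were 27, 12, 5, 10 and 0 in OVX+GEX, 0, 0, 4, 0 and 0 in OVX+FMT, 12, 0, 3, 0 and 0 in OVX+PBS, 0, 86, 31, 0 and 16 in OVX, and 0, 34, 15, 162 and 14 in Sham. OVX+FMT lay lowest, with a log2 fold change over Sham of -5.13 (SE 2.19, edgeR adjusted p = 0.148), and OVX+GEX was close to Sham in the number of libraries that held it, 4 in each. The 2 tested oxidoreducens ASVs, described after their values had been seen, also differed in where they occurred. ASV_231 was present in 1 OVX+GEX, 4 OVX+FMT and 2 OVX+PBS libraries and had 0 counts in all OVX and Sham libraries, and ASV_347 was present in 3 Sham libraries and in 1 library each of OVX+GEX, OVX+FMT and OVX. OVX+FMT was at least 5.66-fold higher than Sham in ASV_231 (edgeR adjusted p = 0.113), a difference that limma on centred log-ratios called with an adjusted p of 0.0450.

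edgeR called 0 of the 15 tested Eubacterium ASVs in each of the 7 comparisons. At an unadjusted p under 0.05 it placed 2 for OVX against Sham, 7 for OVX+GEX against OVX, 3 for OVX+FMT against OVX+PBS, 7 for OVX+PBS against OVX, 5 for OVX+GEX against Sham, 7 for OVX+PBS against Sham and 4 for OVX+FMT against Sham. Of all 379 ASVs, 17.2%, 19.3%, 21.1%, 24.8%, 18.2%, 25.6% and 19.0% reached that level in these comparisons, in the same order. For OVX+GEX against OVX the 7 included ASV_67, ASV_179, ASV_231 and ASV_314. Each of these had 0 counts in all libraries of 1 group and was counted in only 1 library of the other. The rest, ASV_77, ASV_80 and ASV_144, were counted in more than 1 library. ASV_179 and ASV_314 were named after their values had been seen. DESeq2 called 1 ASV for each of OVX+FMT against OVX+PBS, OVX+PBS against OVX and OVX+GEX against Sham, where it called 1.58%, 1.32% and 1.58% of all ASVs, and 0 elsewhere, at 0.528% to 2.9% of all ASVs. Limma on centred log-ratios called 1 for each of OVX+GEX against Sham and OVX+FMT against Sham, where it called 1.06% and 3.17% of all ASVs, and 0 elsewhere, at 0% to 0.264%. Over all 379 ASVs tested edgeR called 1.06% for OVX+FMT against Sham and 0% in the other 6 comparisons. With 5 libraries a group and most ASVs at 0 in part of them, the errors were wide: the SE of the log2 fold changes of the 8 named ASVs ran from 1.59 to 2.76.

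The taxonomy also held species names with Eubacterium in square brackets, the usual mark of a name that no longer fits its genus, and these stand outside the genus field used here. [Eubacterium] siraeum, placed in the Oscillospiraceae, had 7 ASVs and 598 counts in 16 libraries. Its mean share was 0.0501% ± 0.0480 in OVX+GEX, 0.357% ± 0.649 in OVX+FMT, 0.0678% ± 0.0853 in OVX+PBS, 0.168% ± 0.242 in OVX and 0.286% ± 0.423 in Sham (SD, n = 5 each), so that the groups overlapped within their spread. [Eubacterium] rectale, placed in the Lachnospiraceae and known as a butyrate producer of the human gut, had 1 ASV with 5 counts in 1 Sham library. Within the family Eubacteriaceae 52 of 53 ASVs were Eubacterium and the other was Anaerofustis.

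The genera whose levels moved most like Eubacterium did so only weakly. Over the 25 libraries, on centred log-ratios, Spearman's rho with Eubacterium was 0.49 for Anaerotignum (Pearson's r 0.53), 0.42 for Intestinimonas (r 0.44), a butyrate-forming gut genus, and 0.37 for Schaedlerella (r 0.25). Without the 2 libraries furthest from the Eubacterium median the rho values were 0.36, 0.28 and 0.27. All values of a library share its total, and the 25 points include the differences between groups, so these figures are a description. Anaerotignum averaged 0.0741% ± 0.0503 in OVX+GEX, 0.103% ± 0.0464 in OVX+FMT, 0.125% ± 0.0461 in OVX+PBS, 0.234% ± 0.0569 in OVX and 0.266% ± 0.101 in Sham (SD, n = 5 each).

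Other genera were read from 2 lists, by function and by naming history. Of 21 genera known for forming butyrate, a short-chain fatty acid that feeds the colon lining, 10 could be tested. For OVX+GEX against Sham 3 had a higher and 7 a lower estimate, with a median log2 fold change of -0.47 beside -0.02 over all 81 genera, and for OVX+GEX against OVX 5 were higher and 5 lower with a median of -0.03 beside 0.13. Only Lawsonibacter among the 10 passed the threshold, and it rose: OVX+GEX held 2.10% ± 1.19, OVX+FMT 1.29% ± 1.18 and OVX+PBS 1.73% ± 0.368, against 0.333% ± 0.201 in Sham (SD, n = 5 each). The log2 fold changes over Sham were 3.33, 2.94 and 3.06 with edgeR adjusted p-values of 0.0124, 0.0420 and 0.0288. OVX held 1.11% ± 0.586 (SD, n = 5), with a log2 fold change over Sham of 2.19 that did not pass (edgeR adjusted p = 0.225). Lawsonibacter thus had a higher mean in every ovariectomized group than in Sham, not only in OVX+GEX, where Eubacterium was lowest. The Eubacterium difference from Sham did not pass the threshold after adjustment in any of these groups. The second list held 20 genera taken to include species once named Eubacterium, and the naming history of each was not checked. Of these, 4 could be tested (Amedibacillus, Butyribacter, Faecalicatena and Tyzzerella), and 0 passed in any comparison by edgeR. Their smallest edgeR adjusted p was 0.0745, for OVX+FMT against Sham, where 1 was higher and 3 lower.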

How the data were processed

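Stool DNA was extracted with a commercial kit and sequenced as full-length 16S amplicons, per the labels' protocols. The deposited table holds raw counts per ASV with 7 taxonomic ranks, converted by the authors from a BIOM file, per the file headers. The submitters' processing notes name Subread, without its version or role. How reads were denoised and filtered, with which primers and which taxonomy database, was not given in the sources used here. No value was 1 while 464 were 2, which bears on ASV richness and on which ASVs read 0. Of the 25 columns 5 read OVX+GES and were taken as OVX+GEX by their otherwise identical names; 0 columns were left unmapped.

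Counts were summed per genus and species name. edgeR 4.0.16 (R 4.3.3; TMM, quasi-likelihood F test) fitted all 25 libraries at once on features that reached 3 counts in 5 or more libraries, with Benjamini-Hochberg adjustment over all features kept and a threshold of 0.05. The SE given with an edgeR log2 fold change was calculated back from the test. It is the absolute log2 fold change divided by the square root of the F statistic, and so is approximate. Shares, parts and rarefied richness (8498 reads) were compared by exact permutation tests (two-sided on the absolute difference of means, all divisions of 10 libraries into 5 and 5), adjusted over 7 comparisons, with NumPy 2.4.6 and SciPy 1.17.1. Comparisons against Sham and against OVX share those libraries. A count of 0 was read as at most 3 counts. Intervals are Wilson 95% and cover counting error only. Both procedures were tested on simulated data.

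The ASVs to be named were the 8 with the highest mean share and any past the threshold, and the genera to be named were the 3 most like Eubacterium and list members past the threshold. The members and lists were chosen with earlier results of these data known. Alternatives were TMMwsp, DESeq2 size factors, plain totals, DESeq2 1.42.0, limma 3.58.1 on centred log-ratios (0.5 added), no filter or a stricter one, fits of 2 groups alone, a replicate block, leaving out each replicate, and other scales of the share. Replicate numbers were not taken to pair libraries: same-numbered libraries of 2 groups had deviations correlated over 0.1 in at most 4 of 5 pairs, although all 5 correlations were above 0 for OVX+GEX against OVX (0.0913 to 0.201) and against Sham (0.0479 to 0.188).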

Additional observations from a re-analysis of the deposited data

Results flagged for a closer look

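Of 35 sets of 5 libraries examined for 1 library far from the rest, 7 held one, judged by the gap to the nearest library as a share of the whole range (above 0.71). Chance flags about 1 in 20 sets, and the 7 are not independent, since species and genus shares overlap. OVX+FMT library 4 stood high in 3 of them. Its Eubacterium share was 7.36%, with the other OVX+FMT libraries at 0.638% to 2.30%, its xylanophilum share was 6.11%, with the others at 0.0405% to 0.882%, and its oxidoreducens share was 0.643%, with the others at 0.0507% to 0.209%. In coprostanoligenes, at 0.612%, the same library lay among its group.

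OVX library 2 held a Eubacterium share of 6.46%, with the other OVX libraries at 0.938% to 2.45%. ASV_77 and ASV_144 gave 409 of its 715 Eubacterium counts, whereas OVX+FMT library 4 owed 486 of 698 to ASV_53, ASV_63 and ASV_67, so that the highest libraries of these groups were high through different ASVs.

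Sham library 5 had the highest coprostanoligenes share of its group, 1.43% against 0.0625% to 0.318%, and the highest coprostanoligenes part of Eubacterium, 37.3% against 2.89% to 6.29%. Finally, OVX+GEX library 1 had the lowest xylanophilum share of its group, 0.451%, with the others between 0.529% and 0.551%. That gap is smaller than the Wilson half-width of 0.129 points at this depth. What set any of these libraries apart was not tested.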

How the results depend on the processing

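Over 1113 repeats of 70 results, 999 kept direction and side of the threshold. OVX+GEX stayed below OVX and below Sham in the genus share and genus fold change in each alternative run, with adjusted p-values of 0.0278 to 0.622 (the share against OVX passed only without OVX replicate 4) and 0.0556 to 0.671. OVX replicate 4 was the only OVX library within the OVX+GEX range, so that pass is no further support. No estimate that changed sign was past the threshold on either side of 0. On centred log-ratios the genus difference was 0.161 for OVX against Sham, -0.492 for OVX+FMT against OVX+PBS, 0.359 for OVX+PBS against OVX, 0.521 for OVX+PBS against Sham and 0.0288 for OVX+FMT against Sham, and that of xylanophilum -0.896 for OVX+FMT against OVX+PBS. As a share of Firmicutes counts the first 4 were 0.0148, -0.635, 0.286 and 0.3004 points, and as log2 of the share OVX+FMT against OVX+PBS was -0.132. As percent of the library in place of percent of Eubacterium, coprostanoligenes gave -0.483 for OVX+GEX against OVX, -0.195 for OVX+FMT against OVX+PBS and -0.143 for OVX+GEX against Sham. Xylanophilum gave 0.324 for OVX+FMT against OVX+PBS, and -1.56 and -1.99 for OVX+GEX against OVX and Sham. The OVX+GEX differences in xylanophilum were past the threshold, but these groups had been seen not to overlap. That alone fixes their exact permutation p, so passing is no further support.

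edgeR's genus log2 fold changes turned as follows. With plain totals they were -0.16 for OVX against Sham, 0.14 for OVX+FMT against OVX+PBS, -0.40 for OVX+PBS against Sham and -0.26 for OVX+FMT against Sham. With no filter OVX against Sham was -0.14, OVX+PBS against OVX 0.079, OVX+PBS against Sham -0.064 and OVX+FMT against Sham -0.20. OVX+PBS against OVX was also 0.23 with TMMwsp, 0.21 with DESeq2's size factors and with DESeq2, 0.36 with limma and 0.022 with a count minimum of 10, and OVX+FMT against Sham was -0.041 with DESeq2's size factors, -0.041 with DESeq2 and -0.080 with that minimum. Of the species estimates, xylanophilum in OVX against Sham was 0.047 with TMMwsp and in OVX+FMT against OVX+PBS 0.33 with plain totals and 0.14 with only the groups compared. Coprostanoligenes in OVX+GEX against Sham was 0.14 with TMMwsp, 0.050 with DESeq2's size factors, 0.050 with DESeq2, 0.76 with limma, 0.040 with only the groups compared, 0.063 unfiltered and 0.28 with the minimum of 10, and oxidoreducens in OVX+FMT against Sham was 0.019 with limma.

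Eubacterium ASVs past the threshold, 0 in the main test, numbered 1 for OVX+GEX against OVX with only the groups compared, 1 for OVX+FMT against OVX+PBS with DESeq2 and with only the groups compared, and for OVX+PBS against OVX 1 with TMMwsp, DESeq2 or a minimum of 10 and 2 with only the groups compared or no filter. For OVX+GEX against Sham it was 1 with DESeq2, limma, only the groups compared or no filter, and for OVX+FMT against Sham 1 with limma. Over all ASVs, fits of only the groups compared called 2 of 370 for OVX+GEX against OVX and 2 of 359 for OVX+FMT against OVX+PBS. They called 4 of 366 for OVX+PBS against OVX and 13 of 370 for OVX+GEX against Sham. For OVX+PBS against OVX 2 of 379 were called with TMMwsp, 2 of 236 with the minimum of 10 and 6 of 1555 with no filter. With no filter 3 of 1555 were called for OVX+GEX against Sham.

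With a replicate block the genus log2 fold change was 0.019 for OVX+FMT against OVX+PBS and 0.025 for OVX+PBS against OVX, and coprostanoligenes in OVX+GEX against Sham was 0.72. In that setting 1 Eubacterium ASV (ASV_67) passed for OVX+GEX against Sham, where 3 of all 379 ASVs were called. As paired differences of the xylanophilum share, OVX+GEX against OVX (-1.56) and against Sham (-1.99) had an adjusted exact p of 0.146 for both, where 5 sign flips cannot go below 0.0625 before adjustment. The replicate block changed no other call.

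Leaving out 1 replicate at a time gave these ranges. The genus share ran from -0.907 to 0.773 for OVX+FMT against OVX+PBS, -0.935 to 0.445 for OVX+PBS against OVX, -2.48 to -1.10 for OVX+GEX against OVX and -1.23 to 0.147 for OVX against Sham, and richness from -6.85 to -4.33 for OVX+FMT against Sham. In OVX+GEX against OVX the coprostanoligenes part ran from -4.37 to 9.72, and the xylanophilum part ran from -17.9 to 1.30 for OVX+FMT against OVX+PBS and -13.7 to 1.98 for OVX against Sham. For the xylanophilum share the range was -1.89 to -0.735 for OVX+GEX against OVX, -2.20 to -1.47 for OVX+GEX against Sham, -0.805 to 0.711 for OVX+FMT against OVX+PBS, -2.05 (adjusted exact p = 0.0185, without OVX+FMT replicate 4) to -0.407 for OVX+FMT against Sham, -1.15 to 0.00707 for OVX+PBS against OVX and -1.25 to 0.0884 for OVX against Sham. Genus log2 fold changes ran from -0.43 to 0.53 for OVX against Sham, -0.89 to 0.081 for OVX+FMT against OVX+PBS, -0.30 to 0.54 for OVX+PBS against OVX and -0.78 to 0.31 for OVX+FMT against Sham. In species, xylanophilum ran from -0.70 to 0.41 for OVX against Sham and -1.44 to 0.076 for OVX+FMT against OVX+PBS, oxidoreducens from -0.36 to 1.53 with OVX+GEX and -0.14 to 1.45 with OVX+PBS, both against OVX, and coprostanoligenes from -0.73 to 1.41 for OVX+GEX against Sham. ASVs called for OVX+FMT against Sham numbered 0 to 1, the call being ASV_53 without OVX+FMT replicate 4, the only OVX+FMT library that held it. Over all ASVs 5 of 379 were called without that replicate. For the xylanophilum share, whose groups had been seen not to overlap before a test was run, OVX+GEX against OVX and Sham was past the threshold (adjusted exact p = 0.0278) with all libraries and without any 1 OVX or Sham library, and not past it without any 1 OVX+GEX library (0.222 and 0.0556). With groups of unequal size the p-value of this test of means is not fixed by the separation alone. These p-values support nothing beyond the separation itself. The same holds for the xylanophilum share of OVX+FMT against Sham without OVX+FMT replicate 4, the only OVX+FMT library not below all Sham libraries. The cause of these changes was not tested. At 8498 to 22404 counts a library, shares below about 0.0353% in the smallest library are not told from 0.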
